A study of Mus musculus with 9 samples.

Results

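The genes described are 36 enzymes, or subunits of enzyme complexes, that add methyl groups to histones (writers, 24 genes) or remove them (erasers, 12 genes). They were taken by name from the array files, in which 63 of the probes that are not controls carry 1 of these 36 gene names, out of 34650 gene names on the array. All 36 were above background on all 9 arrays, and 62 of their 63 probes passed the filter on dim probes, as did 24101 genes in all. RNA came from primary microglia of newborn fms-EGFP mice, which carry EGFP under the promoter of the microglial receptor gene fms (Csf1r). All cultures had been grown with granulocyte-macrophage colony stimulating factor, from flasks that each held a pair of brains. The 9 arrays formed 3 groups of 3, made up of control microglia without a phagocytic stimulus and of microglia that had been given apoptotic cells of SH-SY5Y, which is a neuroblastoma line of human origin, for either 3 h (Ph3h) or 24 h (Ph24h). The SH-SY5Y cells had been labeled with the membrane dye CM-DiI and treated with staurosporine at 3 μM for 4 h to induce apoptosis. No group of these arrays received dye or staurosporine without cells. The labels give the control as time 0, and no unfed group was taken at 3 h or 24 h. Feeding and time in culture therefore cannot be told apart. The samples of a group came from independent experiments, per the study's methods.

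Histones carry methyl groups on lysines and arginines, and each mark is read by other proteins. Methylation of H3K4, H3K36 and H3K79 is found at active or transcribed genes. Methylation of H3K9 and H3K27 and trimethylation of H4K20 are found in silent or compacted chromatin. H3K27 is methylated by polycomb repressive complex 2 (PRC2), in which Ezh1 or Ezh2 is the catalytic subunit, and Kdm6b (JMJD3), known in macrophages as a gene induced by inflammatory stimuli, removes the mark. The arrays measure transcripts, so neither the enzymes' proteins nor the marks were measured.

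The level given below is the log2 fluorescence intensity of a gene's brightest probe, minus the 75th percentile of that array, so that 0 is the 75th percentile. Levels of different probes are not set against each other. The 75th percentile itself was 356 to 473 intensity units on control arrays, 185 to 211 on Ph3h arrays and 156 to 161 on Ph24h arrays, and 25638 to 29311 probes per array were above background. All of 10 microglial markers were measured, and their signal, summed on each array and put on the same log2 scale, ran from 10.03 to 10.08 for control, from 10.50 to 10.64 for Ph3h and from 9.88 to 9.93 for Ph24h. The same sums ran from 2.17 to 3.72 over all arrays for 6 astrocyte markers, from 7.70 to 8.89 for 7 markers of the oligodendrocyte lineage and from -0.17 to 0.84 for 5 fibroblast markers, and the first 2 were highest in Ph3h and lowest in Ph24h. Single microglial markers moved apart from their sum. By the limma test described below, 5 of the 10 were higher and 3 lower at 3 h (27.9% and 25.9% of all genes). At 24 h, 2 were higher and 8 lower (29.9% and 33.2%), with Cx3cr1 at a log2 change of -4.56 ± 0.18 and Itgam at 1.23 ± 0.11. Of 14 genes typical of the SH-SY5Y cells, 12 were measured. Their sum on the mouse probes lay between 0.44 and 0.57 for control, between 6.92 and 7.07 for Ph3h and between 7.41 and 7.53 for Ph24h. In control, 5 of these 12, among them Hand2 and Isl1, were not well above background on any array, against 1 in Ph3h and 0 in Ph24h. Signal on mouse probes of genes that the fed cells express therefore moved with both fed groups, and its part in each result below was not tested. In RNA from whole cultures, fewer cells of a type and less RNA per cell cannot be told apart.

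The members whose results turn on a particular probe are shown first by the beginning of that probe, because probes of the same gene did not always give the same direction. Each probe is a 60-mer, and its first 30 bases, as the array files give them, stand below from 5′ to 3′ in lower case, with no part marked. Ezh2 and Suv39h1 have 1 probe each on the array, and the results for these genes rest on it. The same holds for other members, among them Kdm6b and Kdm4b, whose probes are not shown. For Dot1l and Ehmt1, every kept probe is shown, in order of brightness.
Ezh2 (chr6:47480307-47480366, minus strand): gctgcaaagtgttttgtaccagtgagtttt
Suv39h1 (chrX:7647715-7647774, minus strand): gggtgtccgcacgctggaaaagatccgaaa
Dot1l, brightest (chr10:80258146-80258205, plus strand): catctcacacattgttgctgcctttagaca
Dot1l, the second (chr10:80257008-80257067, plus strand): catctgtgtataagagagtcacatgatcag
Dot1l, the third (chr10:80255424-80255483, plus strand): gtttcccttggcatgccgcctccttatgcc
Ehmt1, brightest (chr2:24646395-24646454, minus strand): gtgtgtgtgtgagtgtgtgtgactcttcta
Ehmt1, the second (chr2:24646765-24646824, minus strand): ccacacgctatgatgatgatgaataaactc
Positions are those of the array files, in the mouse build mm9. No annotation of that build was used, so exons and untranslated regions are not assigned here.

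At 3 h after feeding, 19 of the 36 members were lower than in control and 7 were higher, and 10 were not called. A gene was called when its adjusted p was below 0.05 in limma, with the Benjamini-Hochberg adjustment over all 24101 genes. Among all genes, 25.9% were called lower and 27.9% higher, so the share of members called lower, 52.8%, was about double that background and the share called higher, 19.4%, was below it. This background is not matched for detection. A gene entered it when above background on at least 1 array, whereas all 36 members were so on all 9 arrays. The median log2 change of the members was -0.19, against 0.07 over all genes. At 24 h, 18 members were lower (50%, against 33.2% of all genes), 9 were higher (25%, against 29.9%) and 9 were not called. The median change at 24 h was -0.22, against 0.01 over all genes. Between the fed groups, 11 members were higher at 24 h than at 3 h (30.6%, against 20.4% of all genes) and 10 were lower (27.8%, against 24%). The overall F test over the 3 groups was passed by 29 of 36 members and by 70.5% of all genes. The shares of all genes called lower and higher are also the background for the counts of the other gene lists below.

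In all, 14 members fell at both times and 5 rose at both times (Ezh2, Kdm6b, Kdm5b, Kdm3a and Prmt1). Another 3 were called in opposite directions at 3 h and 24 h, namely Suv39h1 and Dot1l, which were higher and then lower, and Kdm4b, which was lower and then higher. The share of all genes with such joint calls was not computed, so whether these counts are unusual cannot be said. No comparison called Setd1a, Ehmt2, Kdm3b, Whsc1 or Carm1. The Ph3h arrays did not overlap the control arrays for 29 members (65.7% of all genes) and the Ph24h arrays did not for 32 (71.3%). These shares depend on the scaling. When arrays were aligned at their median in place of the 75th percentile, the median change of all genes shifted by -0.24 at 3 h and -0.51 at 24 h, 5 members were called higher at 3 h and 23 lower, and 4 were called higher at 24 h and 26 lower. With this scaling all genes called split into 4323 higher and 8514 lower at 3 h, against 6722 and 6254 with the 75th percentile, and into 3842 and 12260 at 24 h, against 7210 and 7990. Between the fed groups this scaling shifted the median by -0.26 and called 3 members higher and 16 lower at 24 h (2489 and 8505 of all genes, against 4913 and 5779). Of the calls from control, 5 (Eed, Prmt5 and Suv39h2 at 3 h and Setd7 and Suv420h1 at 24 h) were close to the threshold, and leaving out single arrays moved their adjusted p to between 0.05 and 0.11. The plot of changes by mark shows each member at both times.

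**Figure D1:**
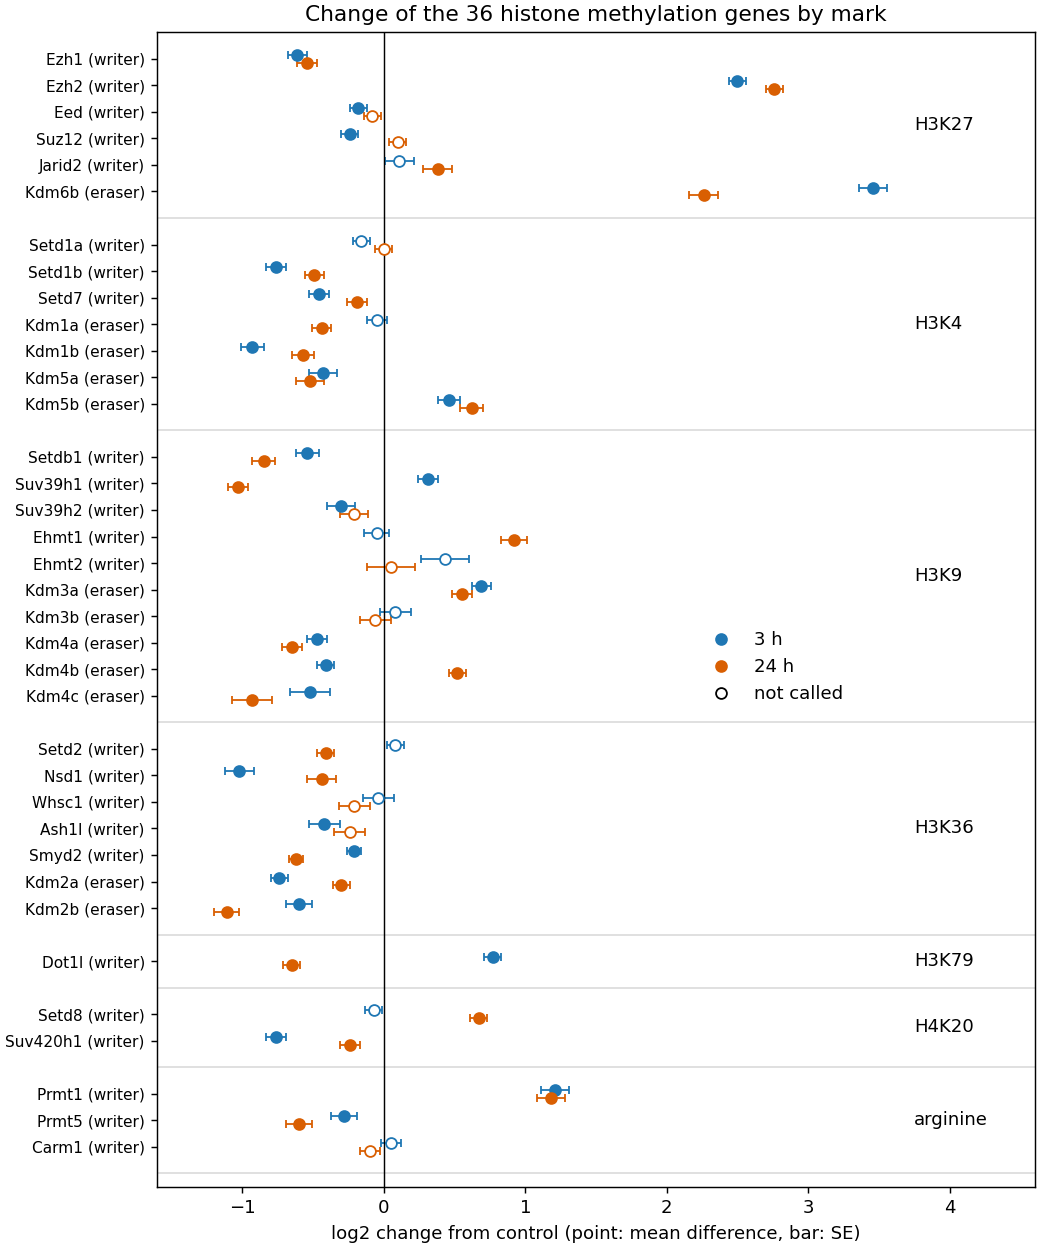
Log2 change from control (x axis) of each of the 36 genes, grouped by the histone mark that the enzyme acts on, at 3 h (blue) and 24 h (orange); points are differences of group means with 3 arrays each, bars are SE, and open points were not called. Ezh2 and Kdm6b stand far to the right at both times, and no gene grouped under H3K36 was called higher.

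The H3K27 group held the 2 largest changes of all members, and they belonged to the writer Ezh2 and the eraser Kdm6b, which rose together. Ezh2 was at 0.20, 0.21 and 0.29 in control, at 2.77, 2.78 and 2.66 in Ph3h and at 2.98, 2.96 and 3.04 in Ph24h. The groups did not overlap, and the Ph24h arrays were the highest, although 24 h minus 3 h, at 0.26 (adjusted p = 0.0099), was -0.01 (adjusted p = 0.95) with arrays aligned at their median. Ezh2 rose by 2.50 ± 0.06 (log2 change ± SE, n = 3 arrays per group) at 3 h, or 5.66-fold, and by 2.76 ± 0.06 at 24 h, or 6.77-fold (adjusted p = 1.5e-07 and 6.7e-08, limma).

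Kdm6b was at -0.67, -0.95 and -0.60 in control, at 2.65, 2.77 and 2.72 in Ph3h and at 1.53, 1.41 and 1.61 in Ph24h. Every fed array was above every control array, and the Ph24h arrays lay between control and Ph3h. It rose by 3.46 ± 0.10 at 3 h (adjusted p = 4.3e-07), or 11-fold, and by 2.26 ± 0.10 at 24 h (adjusted p = 2.1e-06), or 4.78-fold, and the level at 24 h was lower than at 3 h by -1.20 ± 0.10 (adjusted p = 7.4e-05). Within an array, the difference between Ezh2 and Kdm6b relative to control was -0.95 ± 0.09 (SD, n = 3) at 3 h and 0.50 ± 0.06 at 24 h, so the eraser had risen more than the writer at 3 h and less at 24 h. Kdm6a (UTX), the other H3K27 demethylase of the family, fell by 0.41 ± 0.09 at 3 h (adjusted p = 0.0078) and by 0.92 ± 0.09 at 24 h (adjusted p = 1e-04).

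Ezh1, the alternative catalytic subunit, which is found in cells that do not divide, fell from 5.31 ± 0.04 (SD, n = 3) in control to 4.70 ± 0.09 in Ph3h and 4.77 ± 0.10 in Ph24h. The changes were -0.61 ± 0.07 and -0.54 ± 0.07 (adjusted p = 3e-04 and 0.00042). Of the 4 probes of Ezh1, 3 fell at both times, and the other, above background on 5 arrays, was not called (0.77 and -0.21). Relative to control, Ezh2 had gained 3.11 ± 0.08 (SD) on Ezh1 within the same array at 3 h and 3.30 ± 0.05 at 24 h, a measure that the scaling of the array does not touch. The core subunits Eed and Suz12, without which the complex has no activity, fell by 0.18 ± 0.06 and 0.24 ± 0.06 at 3 h (adjusted p = 0.032 and 0.013) and were not called at 24 h, when their changes were -0.08 (95% confidence interval -0.21 to 0.06) and 0.10 (-0.05 to 0.25). The 24 h change of Suz12 depended on the scaling, since it was called higher after quantile normalization (0.20, adjusted p = 0.019), with normexp (0.24, adjusted p = 0.033) and in the deposited log2 table (0.20, adjusted p = 0.018), and lower with median scaling (-0.41). Jarid2, which helps to recruit PRC2, was not called at 3 h (0.11 ± 0.10, adjusted p = 0.36) and was higher at 24 h (0.38 ± 0.10, adjusted p = 0.011), a call that was lost with its direction (-0.13, adjusted p = 0.33) when arrays were aligned at their median.

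Among 6 accessory PRC2 subunits, 2 rose and 3 fell at 3 h, and 1 rose and 4 fell at 24 h. Phf19, a reader of methylated H3K36 that brings PRC2 to chromatin, rose by 1.58 ± 0.06 at 3 h and fell by 0.42 ± 0.06 at 24 h. The histone chaperone Rbbp7 also rose by 0.24 at 3 h and fell by 0.82 at 24 h. Of 18 subunits of PRC1, the complex that binds methylated H3K27, 7 rose and 8 fell at 3 h, and 5 rose and 8 fell at 24 h. Cbx7, a reader of this mark, rose by 2.93 ± 0.12 at both times, whereas Pcgf2 fell by 1.26 ± 0.15 and 1.21 ± 0.15.

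Ezh2 is also known as a gene of dividing cells. Of 14 proliferation markers measured, 10 rose and 0 fell at 3 h, and 0 rose and 14 fell at 24 h (median changes 0.62 and -1.08). Top2a, a topoisomerase of dividing cells, was at 0.90 ± 0.11 at 3 h and -2.46 ± 0.11 at 24 h. The part of proliferation in the levels of Ezh2 was not tested. The summed level of the SH-SY5Y genes given above was also higher in both fed groups, and whether the Ezh2 probe takes up the human transcript was not tested.

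**Figure D2:**
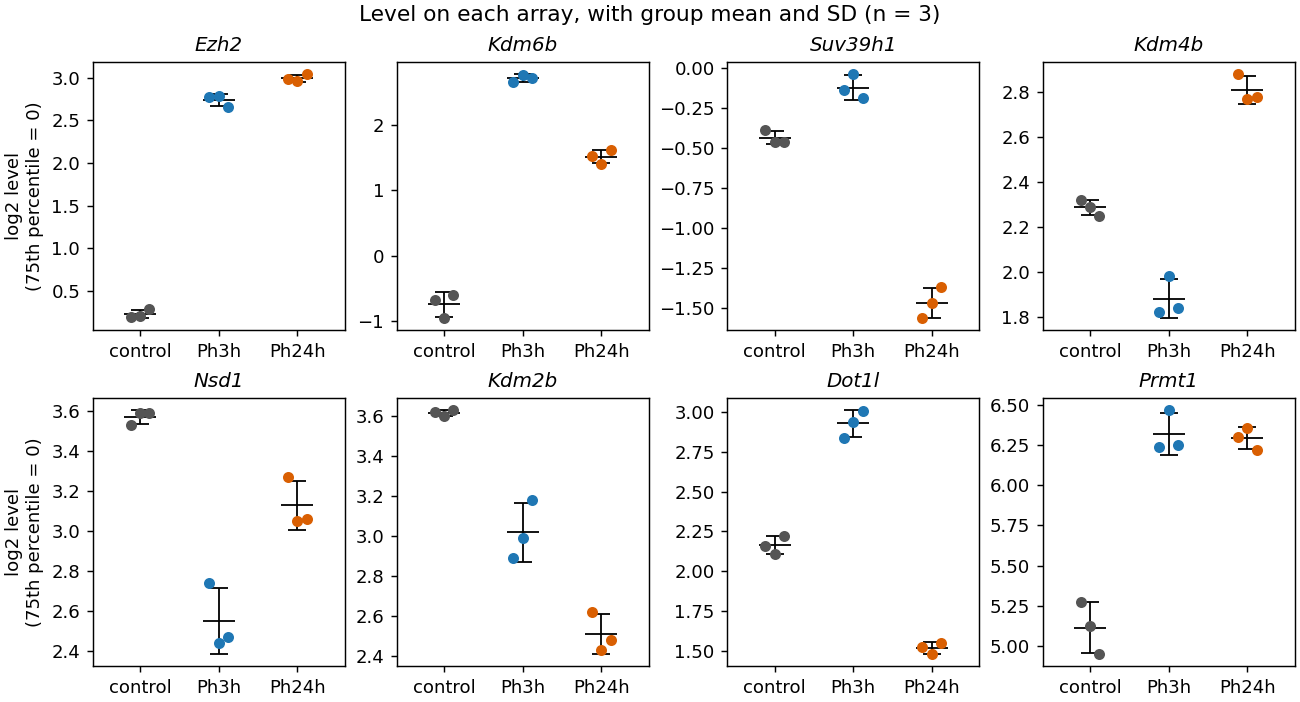
Log2 level on each array (y axis, 0 is the array's 75th percentile; the axes differ between genes) of the 8 genes with a called log2 change of at least 1 in size, or with calls in opposite directions, in control (grey), Ph3h (blue) and Ph24h (orange); the cross bars are the mean and SD of 3 arrays. In each of the 8 genes no fed array overlaps the control arrays, and Suv39h1, Dot1l and Kdm4b lie on different sides of control at 3 h and 24 h.

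Of 7 H3K4 enzymes, 4 fell and 1 rose at 3 h, beside 25.9% lower and 27.9% higher among all genes. At 24 h, 5 fell and 1 rose, beside 33.2% and 29.9%. Setd1b, a catalytic subunit of a COMPASS complex, fell by 0.76 ± 0.07 and 0.49 ± 0.07 (adjusted p = 0.00011 and 0.00088), whereas its paralog Setd1a was not called (-0.16 at 3 h, 95% confidence interval -0.31 to -0.01, and 0.00 at 24 h, -0.15 to 0.15). The 3 h change of Setd1a depended on the processing. It was called lower with median scaling (-0.40, adjusted p = 0.0052) and normexp (-0.24, adjusted p = 0.015). Quantile normalization, the deposited log2 table and a variance that follows the level also called it lower (adjusted p = 0.049, 0.044 and 0.044). The fall of Setd1b is that of its brighter probe, and a dimmer probe that lies 17401 bases upstream rose by 0.81 at 3 h and was not called at 24 h (0.16). The mean over the probes of Setd1b was not called (0.03 and -0.16). The monomethyltransferase Setd7 fell by 0.46 ± 0.07 and 0.19 ± 0.07.

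The H3K4 demethylases split by gene and by time. Kdm1b (LSD2) fell by 0.93 ± 0.08 at 3 h (adjusted p = 5.6e-05) and by 0.57 ± 0.08 at 24 h (adjusted p = 0.00052). Kdm1a (LSD1), the related enzyme that works with the CoREST corepressors, was not called at 3 h (-0.05, -0.23 to 0.12) and fell by 0.44 ± 0.07 at 24 h. Its partners mostly fell. At 3 h, 6 of 9 were lower (25.9% of all genes) and 0 higher (27.9%). At 24 h, 6 of 9 were lower (33.2%) and 1 higher (29.9%). Gfi1b, a repressor that recruits LSD1, fell by 1.16 ± 0.14 and 2.06 ± 0.14. Gfi1 fell by 1.80 ± 0.30 at 3 h, when it was well above background on only 1 of 3 arrays. It was not well above background on any Ph24h array, where it was at least 3.25-fold lower than in control. The corepressor Rcor2 fell by 1.47 ± 0.09 at 3 h and rose by 1.01 ± 0.09 at 24 h.

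Kdm5a and Kdm5b, which remove trimethylation of H3K4, went in different directions. Kdm5a fell by 0.43 ± 0.10 and 0.52 ± 0.10 (adjusted p = 0.0093 and 0.003) and Kdm5b rose by 0.46 ± 0.08 and 0.62 ± 0.08 (adjusted p = 0.0016 and 0.00028). Within an array, Kdm5b had gained 0.89 ± 0.06 (SD) on Kdm5a at 3 h and 1.14 ± 0.13 at 24 h. The rise of Kdm5b rests on its brightest probe alone, and with arrays aligned at their median it was 0.22 (adjusted p = 0.053) and 0.11 (adjusted p = 0.26). A second probe 911 bases downstream fell by 0.76 at 3 h and 0.42 at 24 h, and the other 2 probes were not called at either time. The X-linked relative Kdm5c rose by 0.74 ± 0.10 and 0.94 ± 0.10. Among 12 measured H3K4 methyltransferases outside the members and COMPASS subunits, 5 rose and 4 fell at 3 h, and 5 rose and 2 fell at 24 h. Kmt2c rose by 1.02 ± 0.11 and 0.83 ± 0.11, Kmt2b by 0.98 ± 0.07 and 0.57 ± 0.07, and Cxxc1, which binds unmethylated CpG sites, by 0.92 ± 0.06 and 0.99 ± 0.06.

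The 10 enzymes grouped under H3K9, the largest group by mark, included members that rose, fell and turned. Suv39h1, which trimethylates H3K9 in heterochromatin, was at -0.39, -0.46 and -0.46 in control, at -0.14, -0.04 and -0.19 in Ph3h and at -1.56, -1.47 and -1.37 in Ph24h. The 3 groups did not overlap, with Ph3h above and Ph24h below control. The changes were 0.31 ± 0.07 at 3 h (adjusted p = 0.0072), which was 0.07 (adjusted p = 0.53) when arrays were aligned at their median, and -1.03 ± 0.07 at 24 h (adjusted p = 1.4e-05). Its paralog Suv39h2 fell by 0.30 ± 0.10 at 3 h (adjusted p = 0.038) and was not called at 24 h (-0.21, -0.45 to 0.03). Setdb1, which silences retroelements, fell by 0.54 ± 0.08 and 0.85 ± 0.08 (adjusted p = 0.00095 and 7.5e-05).

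Ehmt1 (GLP) and Ehmt2 (G9a) form a heterodimer that methylates H3K9 in euchromatin. Ehmt1 was at 4.86 ± 0.10 in control and 4.81 ± 0.10 in Ph3h, and rose to 5.78 ± 0.13 in Ph24h, a change of 0.92 ± 0.09 (adjusted p = 1e-04). A second, dimmer Ehmt1 probe that lies 370 bases away on the same strand fell by 0.74 at 3 h and 0.59 at 24 h, so the 2 probes gave opposite calls at 24 h and their mean was not called (0.16, adjusted p = 0.11). Ehmt2 was at 6.55, 6.56 and 5.92 in control, at 6.61, 6.83 and 6.87 in Ph3h and at 6.36, 6.42 and 6.39 in Ph24h. Control replicate 3 stood apart from the other two. Ehmt2 was not called at 3 h (0.43 ± 0.17, adjusted p = 0.071) or at 24 h (0.05 ± 0.17), and without control replicate 3 the changes were 0.22 (adjusted p = 0.087) and -0.16 (adjusted p = 0.17). With a variance that follows the level, the 3 h change of Ehmt2 was called (adjusted p = 0.015).

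Among the H3K9 demethylases, Kdm3a rose by 0.69 ± 0.07 and 0.55 ± 0.07 (adjusted p = 0.00011 and 0.00025), the second being 0.04 (adjusted p = 0.73) with median scaling, whereas Kdm3b was not called (0.08, -0.17 to 0.33, and -0.06, -0.31 to 0.20). Kdm4b was at 2.32, 2.29 and 2.25 in control, at 1.82, 1.98 and 1.84 in Ph3h and at 2.88, 2.77 and 2.78 in Ph24h. The groups did not overlap, with Ph3h below and Ph24h above control. It fell by 0.41 ± 0.06 at 3 h (adjusted p = 0.0013) and rose by 0.52 ± 0.06 at 24 h (adjusted p = 0.00028), and this rise was 0.02 (adjusted p = 0.90) when arrays were aligned at their median. Kdm4a and Kdm4c, which like Kdm4b also act on H3K36, fell at both times. Kdm4a fell by 0.47 ± 0.07 and 0.65 ± 0.07, and Kdm4c by 0.52 ± 0.14 and 0.93 ± 0.14. The mean over the probes of Kdm4a was not called (-0.29 and -0.42), and its other probe was above background on only 1 array. Within an array, Kdm4b had moved with Kdm4a at 3 h (a difference of 0.06 ± 0.14, SD) and had gained 1.17 ± 0.08 on it at 24 h.

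Kdm3a and Kdm4b are known targets of the hypoxia-inducible factors. Of 12 hypoxia-induced genes, 3 rose and 7 fell at 3 h, and 10 rose and 2 fell at 24 h. Egln3 was at -1.97 ± 0.08 and 2.19 ± 0.08 and Ankrd37 at -1.35 ± 0.07 and 2.40 ± 0.07. The part of hypoxia in the levels of Kdm3a and Kdm4b was not tested. Readers and partners of methylated H3K9 mostly fell. At 3 h, 5 of 9 were lower (25.9% of all genes) and 1 higher (27.9%). At 24 h, 7 of 9 were lower (33.2%) and 0 higher (29.9%). The member that rose at 3 h was Uhrf1, which maintains DNA methylation in dividing cells, at 1.34 ± 0.12, and it fell by 1.47 ± 0.12 at 24 h. Mphosph8, a subunit of the HUSH silencing complex, fell by 1.22 ± 0.05 and 0.96 ± 0.05.

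**Figure D3:**
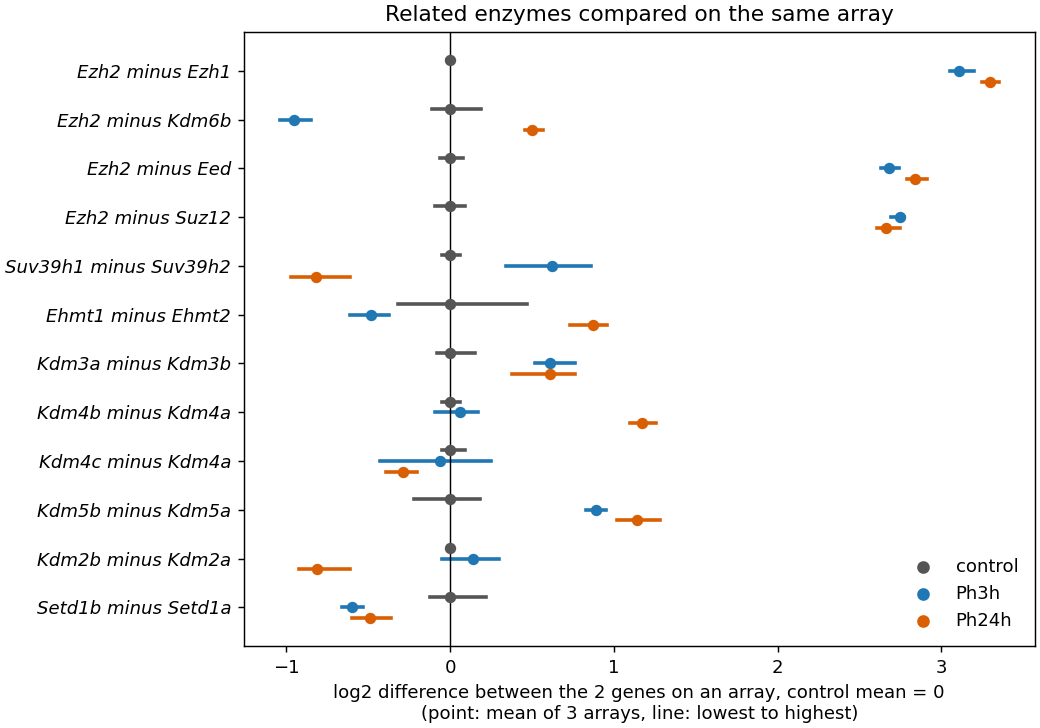
Log2 difference between 2 related genes on the same array (x axis), set to 0 at the control mean, in control (grey), Ph3h (blue) and Ph24h (orange); points are means of 3 arrays and lines run from the lowest to the highest array. Ezh2 gained 2.66 to 3.30 on Ezh1, Eed and Suz12, the most on Ezh1, while Kdm4b left Kdm4a only at 24 h and Ezh2 minus Kdm6b changed sign between 3 h and 24 h.

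None of the 7 genes grouped under H3K36, writer or eraser, was called higher at either time through its brightest probe. Of these 7 members, 5 fell at 3 h (25.9% of all genes were lower) and 5 fell at 24 h (33.2%). The median changes were -0.42 and -0.41. Kdm4b, which stands under H3K9, also acts on H3K36 and was called higher at 24 h. Nsd1, which dimethylates H3K36, was at 3.53, 3.59 and 3.59 in control, at 2.74, 2.44 and 2.47 in Ph3h and at 3.27, 3.05 and 3.06 in Ph24h. All fed arrays were below control, and the Ph24h arrays lay in between. The changes were -1.02 ± 0.10 and -0.44 ± 0.10 (adjusted p = 0.00011 and 0.0061), and a second probe fell likewise, by 0.79 and 0.55.

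Kdm2b, an H3K36 demethylase that also brings a form of PRC1 to CpG islands, was at 3.62, 3.60 and 3.63 in control, at 2.89, 2.99 and 3.18 in Ph3h and at 2.62, 2.43 and 2.48 in Ph24h. The level was lower at each later time with no overlap. Its changes were -0.60 ± 0.09 and -1.11 ± 0.09 (adjusted p = 0.00083 and 2.8e-05). A second probe fell by 0.44 and 1.09, and the other, close to background and 137069 bases away, was higher at 24 h by 0.80. Its paralog Kdm2a had the opposite order, with a fall of 0.74 ± 0.06 at 3 h and of 0.30 ± 0.06 at 24 h (adjusted p = 4.4e-05 and 0.0033), and within an array Kdm2b had shifted against Kdm2a by 0.14 ± 0.18 (SD) at 3 h and by -0.81 ± 0.17 at 24 h.

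Setd2, which adds the third methyl group and travels with RNA polymerase II, was not called at 3 h (0.08, -0.05 to 0.21) and fell by 0.41 ± 0.06 at 24 h (adjusted p = 5e-04). Smyd2 fell by 0.21 ± 0.05 and 0.62 ± 0.05. Ash1l fell by 0.42 ± 0.11 at 3 h and was not called at 24 h (-0.24, -0.49 to 0.01).

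Whsc1 (NSD2) was not called through its brightest probe, at -0.04 ± 0.11 and -0.21 ± 0.11, whereas 3 of its 4 other probes were called at 24 h. The array holds 5 probes of Whsc1 on the plus strand of chromosome 5, and the 4 that were above background on at least 8 arrays are shown here from 5′ to 3′ along the gene, since their changes differ by position.
Whsc1, 2592 bases upstream of the brightest (chr5:34211467-34211526): gtcttcagcacttgggtttaacaaaagttc
Whsc1, brightest (chr5:34214059-34214118): ttatgggagcccacatcagtcaagttggac
Whsc1, 4747 bases downstream (chr5:34218806-34218865): agcacaggattcttatcatttgtaaatcta
Whsc1, 24402 bases downstream (chr5:34238461-34238520): gagcagctgcctttgttttgcctgtttttc
The most upstream of these rose by 0.65 at 3 h (adjusted p = 0.0059 over all probes) and by 1.18 at 24 h (adjusted p = 0.00023). The probe 4747 bases downstream fell by 0.61 and 1.77 (adjusted p = 0.0094 and 4e-05), and the one 24402 bases downstream was not called at 3 h (-0.15) and fell by 1.57 at 24 h (adjusted p = 2.6e-05). The mean over all kept probes of Whsc1 was lower at 24 h by -0.63 (adjusted p = 0.0012), so whether this gene was called depended on the probe.

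Dot1l, the only H3K79 methyltransferase, turned between the 2 times on its brighter probes. The brightest was at 2.16, 2.11 and 2.22 in control, at 2.84, 2.94 and 3.01 in Ph3h and at 1.52, 1.48 and 1.55 in Ph24h. The groups did not overlap, with Ph3h above and Ph24h below control. The changes were 0.77 ± 0.06 and -0.65 ± 0.06 (adjusted p = 4.9e-05 and 8.4e-05), and the difference between the fed groups was -1.41 ± 0.06 (adjusted p = 3.5e-06). The second probe, 1138 bases upstream, did the same, at 0.83 and -0.55. The third, 2722 bases upstream and far dimmer, rose from -3.19 ± 0.19 (SD, n = 3) in control to -1.12 ± 0.03 in Ph3h and -0.54 ± 0.17 in Ph24h, a change of 2.07 and 2.64. The mean over the 3 probes was therefore higher than control at 24 h, by 0.48.

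**Figure D4:**
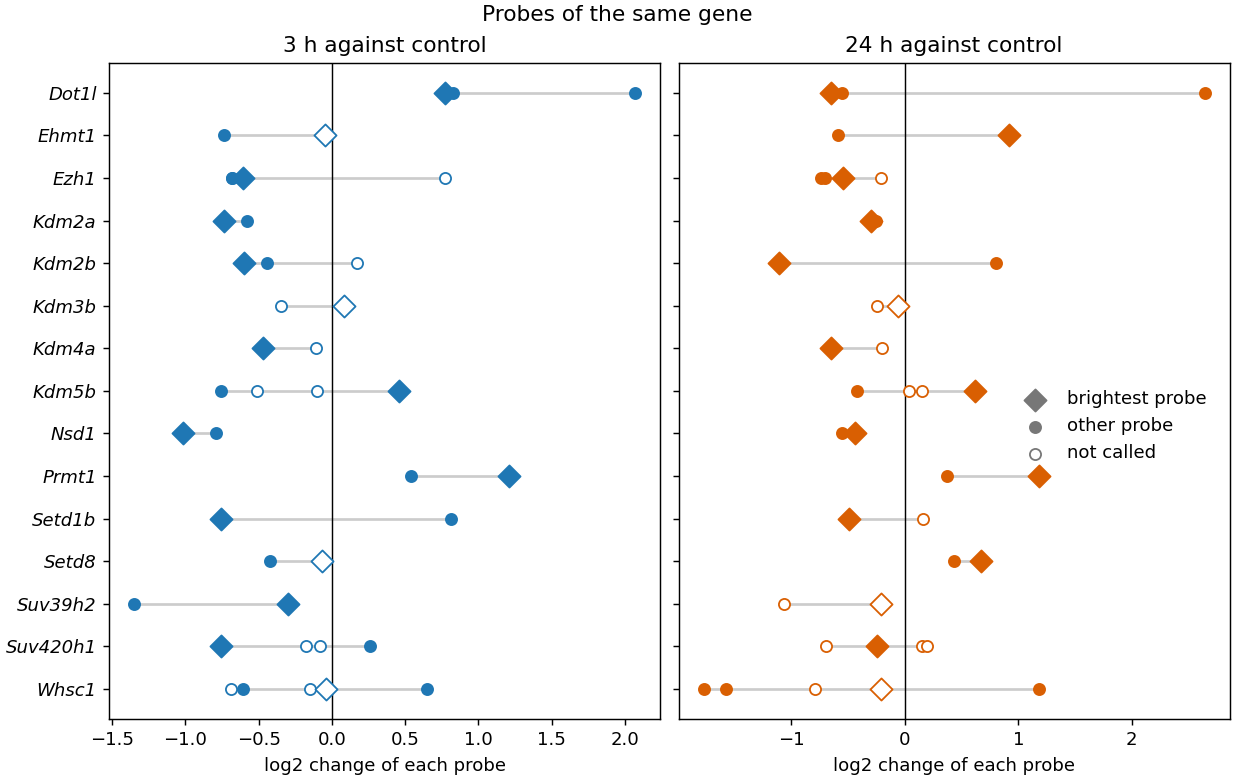
Log2 change from control of every kept probe (x axis) of the 15 genes with more than 1 kept probe, at 3 h (left) and 24 h (right); diamonds are the brightest probe of a gene, circles are its other probes and open symbols were not called. Probes of Kdm2a, Nsd1 and Prmt1 lie on 1 side of 0 at both times, while those of Dot1l, Ehmt1, Kdm2b, Kdm5b and Whsc1 lie on both sides at 24 h with calls in each direction.

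The H4K20 enzymes differed in time. Setd8, which makes the monomethyl mark and is needed in dividing cells, was not called at 3 h (-0.07, -0.21 to 0.07) and rose by 0.67 ± 0.06 at 24 h (adjusted p = 5.3e-05), when the proliferation markers had fallen, although with median scaling this rise was 0.16 (adjusted p = 0.071). Its second probe fell by 0.42 at 3 h and rose by 0.43 at 24 h. Suv420h1, which adds the further methyl groups, fell by 0.76 ± 0.07 at 3 h (adjusted p = 9e-05) and by 0.24 ± 0.07 at 24 h (adjusted p = 0.019). Of its 3 other probes, 1 rose at 3 h, by 0.26, and none was called at 24 h, when their changes were 0.20, 0.15 and -0.69. The mean over the probes of Suv420h1 was not called at 3 h (-0.19, adjusted p = 0.14) or at 24 h (-0.14, adjusted p = 0.22).

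Of the arginine methyltransferases, Prmt1 rose, Prmt5 fell and Carm1 was not called. Prmt1, the main source of asymmetric dimethylarginine and of that mark on H4R3, was at 5.27, 5.12 and 4.95 in control, at 6.24, 6.47 and 6.25 in Ph3h and at 6.30, 6.36 and 6.22 in Ph24h. All fed arrays were above all control arrays, and the fed groups overlapped each other. The changes were 1.21 ± 0.10 and 1.18 ± 0.10 (adjusted p = 5.7e-05 and 4.8e-05), and the second probe rose by 0.54 and 0.37. Prmt5, the main symmetric dimethyltransferase, fell by 0.28 ± 0.09 at 3 h (adjusted p = 0.028) and by 0.60 ± 0.09 at 24 h (adjusted p = 0.00059). The changes of Carm1 were 0.05 (-0.12 to 0.22) and -0.10 (-0.27 to 0.07).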

How the data were processed

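RNA of 9 cultures was hybridized to single-color mouse 60-mer arrays (62976 spots, 55681 probes). The authors deposited scanner files made with Agilent Feature Extraction 10.7.3.1, per the submitters' processing notes. Per the file headers, the deposited intensity used here is the processed signal, from which the authors' scanner software had subtracted background, with no scaling to the other arrays. A second deposited file holds log2 values of 36655 probes, which the authors made with GeneSpring GX after removing probes absent from every sample; each probe is centered on its mean, and no source used here gives the scaling. Its log2 scale and direction were read from the scanner intensities (slope 0.963 at 3 h and 0.961 at 24 h, r = 0.993 and 0.978, over 32401 probes), and its column medians are 0.0944, 0.0890 and 0.0978 in control, 0.00591, 0.00194 and -0.00565 in Ph3h and -0.0712, -0.0471 and -0.0545 in Ph24h. That file served as an alternative only.

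Intensities were put on the log2 scale, spots marked non-uniform or outlying by the scanner software were dropped, replicate spots were averaged and each array's 75th percentile was subtracted. Probes above background on at least 1 array were kept (34381), 56 probes with no usable spot on an array were dropped, and the brightest probe stood for each of 24101 gene names. A model with 1 mean per group was fitted in limma 3.58.1 under R 4.3.3, with Benjamini-Hochberg adjustment over all genes and calls at an adjusted p below 0.05; single probes were fitted and adjusted over all kept probes. With 3 times, the second-degree regression on time of the methods has the same fit as the 3 group means, and its overall test is given as the moderated F test. For a group whose arrays all missed a probe, the fold is a lower bound taken from the lowest signal above background. No spot was saturated, and the small number of arrays limits the precision. The script was tested on simulated data. Figures were drawn with Python 3.11.15 and matplotlib 3.10.9.

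Values of every array are given for members called with a log2 change of at least 1 in size in any comparison, or called in opposite directions at 3 h and 24 h; of the other gene lists, up to 4 called genes with the largest change may be named. Further genes and probes named, such as Kdm6a and the second probes, were chosen after their values were seen. The members, the lists and these rules were chosen with earlier results of these data known. Erasers of several marks stand under 1 mark. The first slide held replicates 1 and 2 and the other slide replicate 3, for each group. Alternatives were quantile normalization, median scaling, normexp with an offset of 50, the deposited table, other filters on dim probes, the mean over a gene's probes, replicate or slide as a block, slide 1 alone, a variance trend, only the groups compared, and leaving out each array.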

Additional observations from a re-analysis of the deposited data

Results flagged for a closer look

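For 21 members the change from control at 24 h differed from that at 3 h, by the direct comparison of the Ph24h with the Ph3h arrays (adjusted p below 0.05 in limma over all genes, by which 20.4% of all genes were higher and 24% lower at 24 h). The 2 changes share the control arrays, and each value below is the log2 level at 24 h minus that at 3 h. The largest differences were those of Dot1l (-1.41), Suv39h1 (-1.34) and Kdm6b (-1.20), all lower at 24 h, and of Ehmt1 (0.97), Kdm4b (0.93) and Setd8 (0.74), all higher at 24 h. The others that were lower at 24 h were Kdm2b (-0.51), Setd2 (-0.49), Kdm4c (-0.41), Smyd2 (-0.41), Kdm1a (-0.38), Prmt5 (-0.33) and Setdb1 (-0.30). The others that were higher at 24 h were Nsd1 (0.58), Suv420h1 (0.52), Kdm2a (0.44), Kdm1b (0.36), Suz12 (0.34), Setd1b (0.27), Setd7 (0.27) and Ezh2 (0.26). All of these last 8 missed the threshold when arrays were aligned at their median, where their values ran from -0.01 to 0.31. Of these 8, 7 (all but Suz12) differed at 24 h in the same direction from control as at 3 h.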

How the results depend on the processing

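Each count of calls and each member's change was recomputed with 12 other settings and without each of the 9 arrays. The counts of members called stayed within 1.5 times of those reported, except with median scaling, where 4 members were higher at 24 h and, between 3 h and 24 h, 3 were higher and 16 were lower. Median scaling also turned the 24 h changes of Setd1a (-0.51), Suz12 (-0.41) and Jarid2 (-0.13) and the difference of Ezh2 between 24 h and 3 h (-0.01), by its shift of all genes. The mean over a gene's probes turned Kdm5b (-0.23) and Setd1b (0.03) at 3 h, Dot1l at 24 h (0.48) and the later difference of Setd1b (-0.19), since their probes disagree. No other value that passed the test, under any of these settings, changed sign. Without a change of sign, the mean over a gene's probes also ended 10 calls of single members. These were Ezh1 at 3 h, Ehmt1, Kdm5b and Setd1b at 24 h, Kdm4a at both times, Kdm2b between the fed groups and Suv420h1 in all 3 comparisons. Leaving out 1 array ended 9 calls of single members, those of Eed, Prmt5 and Suv39h2 at 3 h, of Setd7 and Suv420h1 at 24 h and of Kdm4c, Setdb1, Setd1b and Prmt5 between the fed groups, with adjusted p values from 0.05 to 0.11. Prmt5 between the fed groups depended on Ph24h replicate 1 (-0.30, adjusted p = 0.058), and the others on 3 to 8 different arrays each. It also gave 8 calls that all arrays together did not, with adjusted p values from 0.0099 to 0.049, among them Ehmt2 between the fed groups (-0.38 without control replicate 3). The replicate block, the slide block, quantile normalization, the deposited table, no filter or fitting only the groups compared also ended the call of Setd7, Eed, Prmt5, Suv39h2, Kdm4c or Setdb1 in at least 1 of the same comparisons. Background correction with normexp also ended that of Kdm1a between the fed groups (-0.21, adjusted p = 0.076). The arrays of slide 1 alone, with fewer samples, ended 13 calls of single members, among them Nsd1 at 24 h (-0.40, adjusted p = 0.077), Ash1l, Smyd2 and Suz12 at 3 h and Ezh2 between the fed groups (0.20, adjusted p = 0.092). The labels tie replicate numbers to no shared culture, and same-numbered samples did not deviate together (r from -0.06 to 0.04). With the replicate block, 7 members were higher and 16 lower at 3 h, 9 and 17 at 24 h, and 11 and 9 between the fed groups.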

Other observations

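Other SET-domain and arginine methyltransferases outside the members mostly fell. At 3 h, 11 of 18 were lower (25.9% of all genes) and 3 higher (27.9%). At 24 h, 12 of 18 were lower (33.2%) and 2 higher (29.9%). Prmt7 fell by 0.30 ± 0.09 and 1.53 ± 0.09, Prmt3 by 0.95 ± 0.08 and 1.23 ± 0.08, and Setmar by 1.69 ± 0.23 at 3 h without a call at 24 h (-0.26 ± 0.23, adjusted p = 0.34). Of 11 other lysine demethylases measured, 4 rose and 3 fell at 3 h, and 5 rose and 3 fell at 24 h. Hr, a demethylase and nuclear receptor corepressor, was not well above background on any control array and was at least 15.4-fold higher at 3 h and at least 13-fold higher at 24 h. Jmjd6 rose by 0.42 ± 0.09 and 1.12 ± 0.09.

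Genes that supply or use the methyl donor S-adenosylmethionine changed in both directions, with 2 of 9 called higher at 3 h and 4 called lower, and with 3 called higher at 24 h and 6 called lower. Gnmt, which consumes the donor, rose by 1.22 ± 0.09 and 1.12 ± 0.09, and Nnmt, which does so by methylating nicotinamide, was not called at 3 h (0.63 ± 0.49) and rose by 2.31 ± 0.49 at 24 h (adjusted p = 0.0046). Nnmt was well above background on only 1 of 3 control arrays and 1 of 3 Ph3h arrays, so the size of its rise rests on signal near background. Ahcyl1 fell by 1.02 ± 0.08 and 1.14 ± 0.08.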
